A study of Mus musculus with 9 samples.

Results

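Stem and progenitor transcription factors are described here in dendritic cell (DC) progenitors as 10 genes chosen by name: Gata2, Tal1, Lmo2, Erg, Meis1, Hoxa7, Hoxa9, Hoxa10, Myb and Sox4. All 10 had a probe set of their own among the 19938 genes compared, and each had exactly 1. Transcripts were measured on 9 Affymetrix microarrays of cells sorted by flow cytometry from mouse bone marrow, 3 arrays for each of 3 populations. These were Zbtb46- common DC progenitors (Zbtb46- CDPs), Zbtb46+ common DC progenitors (Zbtb46+ CDPs) and pre-CD8 DCs, the precursors of the lineage now called cDC1. All 3 populations came from mice heterozygous for a Zbtb46-GFP reporter, so every group carries the reporter allele. Zbtb46 encodes a factor of classical DCs, and the reporter marks cells that transcribe it. Age, sex and sort gates are not given in the labels, nor is the origin of a replicate (a mouse, a pool or a sort), and a p-value here measures only how far these arrays spread. The stages are populations sorted side by side, not cells followed in time.

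The 10 factors act at the start of blood formation. GATA2, TAL1, LMO2 and ERG bind together at enhancers of haematopoietic stem cells, where LMO2 bridges DNA-bound partners without touching DNA itself. HOXA7, HOXA9 and HOXA10 are homeobox proteins that work with MEIS1, a homeobox cofactor, to keep early progenitors dividing and undifferentiated. MYB is needed for progenitor renewal and for definitive blood formation, and SOX4 is an HMG-box factor of stem cells and early lymphoid and myeloid progenitors.

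All values are log2 of the deposited signal, and the median over all probe sets was 6.82. For a level near or below it, no signal over background was shown, and a difference that reaches such a level may be understated. Array medians ran from 110.2 to 117.9 on the linear scale, and the small number of arrays limits the precision of every value. Zbtb46 itself had log2 signals of 7.5, 7.05 and 7.18 in Zbtb46+ CDPs, against 6.27, 6.92 and 6.41 in Zbtb46- CDPs, and 7.6, 7.39 and 7.53 in pre-CD8 DCs. Of 9 cDC1 markers, 6 were higher in Zbtb46+ CDPs than in Zbtb46- CDPs and 7 were higher in pre-CD8 DCs than in Zbtb46+ CDPs. Replicate 1 of both CDP populations stood apart. Its Xist signal was 5.3 in Zbtb46+ CDPs and 5.59 in Zbtb46- CDPs, while the other 7 arrays had 11.85 to 12.29, and both arrays were high in secondary granule genes such as Ngp (12.36 and 10.48). Counts of the factors and of the 4 related gene lists are therefore also given without these 2 arrays where they differ. In bulk samples, fewer cells that express a factor and less RNA per cell cannot be told apart.

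At the first step, 7 of the 10 factors were lower in Zbtb46+ CDPs than in Zbtb46- CDPs and none was higher. They were Lmo2, Erg, Meis1, Hoxa7, Hoxa9, Myb and Sox4, by 0.35 to 2.06 on the log2 scale. A gene was called at an adjusted p under 0.05 in limma's moderated test, Benjamini-Hochberg over all 19938 genes. Among all genes compared, 10.6% were called lower and 3.85% higher. No factor was higher at an unadjusted p under 0.05 either, nor in an ordinary linear model. In all 7 the 3 arrays of Zbtb46+ CDPs lay below the 3 of Zbtb46- CDPs, an order shown by 17.4% of all genes. The median difference of the 10 factors was -0.74, against 0.04 for all genes. Gata2, Tal1 and Hoxa10 were not called. Quantile normalization of the arrays gave 1118 genes higher and 1617 lower at this step in place of 768 and 2105, and 6 of the factors stayed called lower.

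At the second step, 1 factor was lower in pre-CD8 DCs than in Zbtb46+ CDPs and 1 was higher. Myb was the one that fell and Lmo2 the one that rose. Among all genes 1.86% were called lower and 4.76% higher. Arrays of the 2 populations did not overlap for 5 factors that were lower (Tal1, Erg, Hoxa9, Myb and Sox4; 10.3% of all genes) and for 1 that was higher (Lmo2; 12.6% of all genes). The median difference of the factors was -0.14, against -0.03 for all genes. With both replicate 1 arrays of the CDPs left out, 7.87% of all genes were called lower, and 5 factors were lower instead of 1: Myb, Sox4 (-0.48, adjusted p = 0.00882), Erg (-0.46, adjusted p = 0.0243), Tal1 (-0.24, adjusted p = 0.0451) and Hoxa9 (-0.33, adjusted p = 0.0491), all by limma. Quantile normalization split all calls at this step into 788 higher and 590 lower in place of 949 and 370.

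Over the whole span, 7 factors were lower in pre-CD8 DCs than in Zbtb46- CDPs and none was higher, where 9.23% of all genes were called lower and 6.43% higher. The 7 were Tal1, Erg, Meis1, Hoxa7, Hoxa9, Myb and Sox4. Arrays did not overlap for these 7 and for Lmo2, 8 factors in all, with pre-CD8 DCs below, as for 19.2% of all genes. No factor was higher at an unadjusted p under 0.05. The median difference was -0.5, against 0.01 for all genes. The moderated F test over the 3 populations called 8 of the 10 factors, against 19.1% of all genes, and left out Gata2 (adjusted p = 0.918) and Hoxa10 (adjusted p = 0.891).

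**Figure D1:**
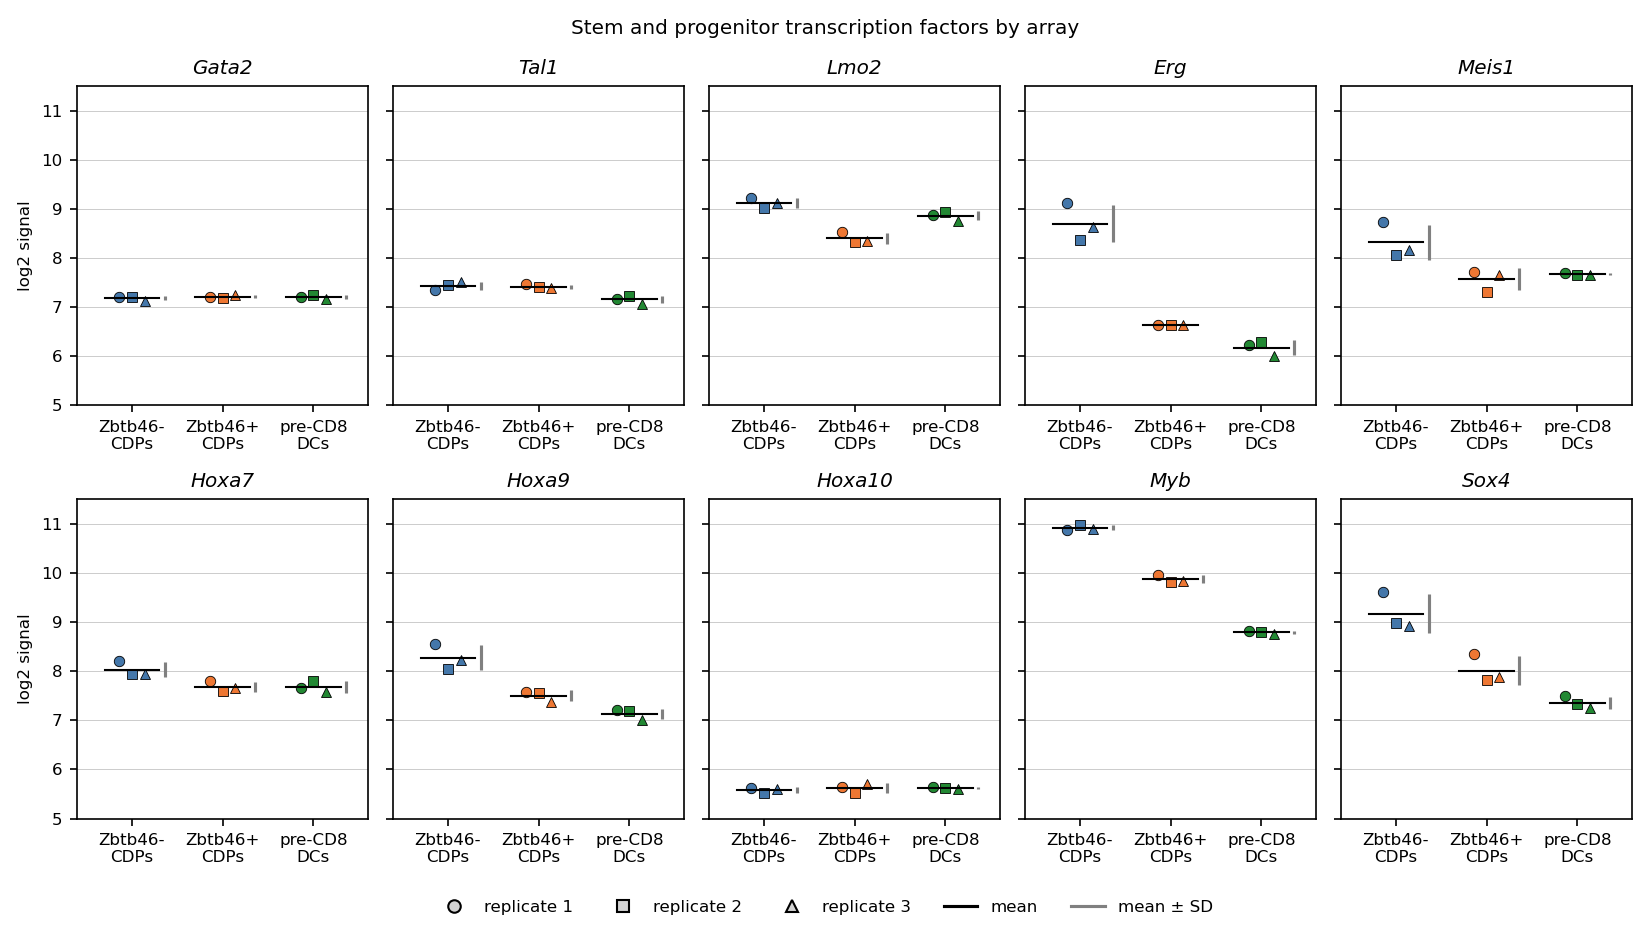
Log2 signal of the 10 factors on each array (points) by population in order of stage, 3 arrays each, with the mean (black line) and mean ± SD (grey bar). Erg, Myb, Sox4 and Hoxa9 had lower means at each later stage, Lmo2 was lowest in Zbtb46+ CDPs, and the groups overlap for Gata2 and Hoxa10. Levels are set side by side within a gene, not between genes, since probe sets differ in brightness.

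The 4 factors with the largest falls over the whole span were Erg, Myb, Sox4 and Hoxa9. Their promoter windows are shown because several of the 10 factors are known to bind the regulatory DNA of the others. Each window holds the 240 bases from 250 to 11 bases before the most upstream gene start in RefSeq on GRCm38.p6, printed 5′ to 3′ on the gene's own strand. Capitals mark the motifs searched for. Erg lies at chr16:95586604-95586843, Hoxa9 at chr6:52227381-52227620, Sox4 at chr13:28953710-28953949 and Myb at chr10:21160995-21161234, all on the minus strand.
Erg: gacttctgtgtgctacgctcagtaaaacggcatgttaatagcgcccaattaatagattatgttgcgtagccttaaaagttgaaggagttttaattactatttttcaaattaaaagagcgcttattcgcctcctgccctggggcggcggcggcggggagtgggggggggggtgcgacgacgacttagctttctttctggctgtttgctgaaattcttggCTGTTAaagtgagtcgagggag
Hoxa9: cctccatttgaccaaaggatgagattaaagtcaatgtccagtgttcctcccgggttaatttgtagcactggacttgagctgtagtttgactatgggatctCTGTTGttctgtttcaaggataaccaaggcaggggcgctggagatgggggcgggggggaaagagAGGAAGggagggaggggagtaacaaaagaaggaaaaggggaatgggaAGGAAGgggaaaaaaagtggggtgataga
Sox4: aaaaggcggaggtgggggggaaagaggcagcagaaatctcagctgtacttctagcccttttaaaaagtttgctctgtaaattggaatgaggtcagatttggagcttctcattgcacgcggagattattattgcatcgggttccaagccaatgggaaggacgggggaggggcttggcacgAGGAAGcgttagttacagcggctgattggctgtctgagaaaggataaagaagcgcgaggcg
Myb: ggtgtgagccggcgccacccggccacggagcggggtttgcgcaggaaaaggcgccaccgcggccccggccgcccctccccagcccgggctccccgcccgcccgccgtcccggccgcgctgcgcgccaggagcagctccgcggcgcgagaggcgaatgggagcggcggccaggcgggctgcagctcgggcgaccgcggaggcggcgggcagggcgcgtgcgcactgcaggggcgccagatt

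Both strands of the windows were searched for short motifs of the factors' families, and 9 of the 10 genes had a window, Lmo2 being the one not analysed here. The Ets core AGGAAG, the kind of site that ERG binds, was found in Hoxa9 (at 86 and 39 bases before the start), Sox4 (71 bases) and Hoxa10 (58 bases), and in 28% of 27025 promoter windows of the same length. The MYB motif CAACNG was found in Hoxa9 (150 bases; 28.1% of windows), and the form TAACNG in Erg (32 bases) and Meis1 (30 bases; 19.2% of windows). The GATA motif AGATAA stood in the window of Tal1 alone among the 9 (205 bases; 9.99% of windows). The TAL1 E-box CAGATG, the MEIS motif TGACAG and the SOX motif ACAAAG were in none of the 9, against 14.2%, 15.4% and 16% of windows. The Myb window held none of the motifs. A match is a string of letters that is common in promoters, and no binding was measured.

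Erg, the Ets factor of the stem cell complex, had the largest fall of the 10. Its log2 signals were 9.11, 8.36 and 8.62 in Zbtb46- CDPs, 6.64 on all 3 arrays of Zbtb46+ CDPs (deposited as the same value), and 6.22, 6.29 and 6.01 in pre-CD8 DCs. The populations were fully separated, and both later ones lay below the table median. Erg was 4.17-fold lower in Zbtb46+ CDPs than in Zbtb46- CDPs (log2 difference -2.06 ± 0.167 SE, adjusted p = 1.26e-04, limma, n = 3 arrays each). The further difference of -0.46 between pre-CD8 DCs and Zbtb46+ CDPs was not called (adjusted p = 0.16), unless replicate 1 of Zbtb46- CDPs was left out of the fit (adjusted p = 0.0317) or both replicate 1 arrays were. Over the whole span Erg reached 17.4% of its Zbtb46- CDP level (-2.52, adjusted p = 1.13e-05).

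Lmo2, the bridging protein of the same complex, was the only one of the 10 called lower and then higher, a course that 1.54% of all genes took. It had 9.21, 9.01 and 9.12 in Zbtb46- CDPs, 8.52, 8.33 and 8.34 in Zbtb46+ CDPs, and 8.88, 8.94 and 8.76 in pre-CD8 DCs. Every Zbtb46+ array lay below all arrays of both other populations, and the pre-CD8 arrays lay below those of Zbtb46- CDPs. The fall to Zbtb46+ CDPs was -0.72 ± 0.0869 (SE, adjusted p = 8.62e-04) and the rise in pre-CD8 DCs over them 0.46 ± 0.0869 (SE, adjusted p = 0.0151), both by limma. The rise was no longer called when replicate 2 or 3 of Zbtb46+ CDPs or replicate 1 or 2 of pre-CD8 DCs was left out (0.42 to 0.52 over all single omissions, highest adjusted p = 0.0659). The difference of -0.26 between pre-CD8 DCs and Zbtb46- CDPs was not called (adjusted p = 0.0849), except without replicate 1 of Zbtb46+ CDPs (adjusted p = 0.0402).

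Tal1, the basic helix-loop-helix factor of the complex, overlapped between the CDP populations and was called lower in pre-CD8 DCs against Zbtb46- CDPs. Its signals were 7.35, 7.44 and 7.51 in Zbtb46- CDPs, 7.46, 7.4 and 7.38 in Zbtb46+ CDPs, and 7.16, 7.23 and 7.07 in pre-CD8 DCs. The CDP arrays overlapped each other, and the pre-CD8 arrays lay below all 6 of them. The first step gave -0.02 (95% interval -0.19 to 0.15, adjusted p = 0.868), the second -0.26 (adjusted p = 0.074) and the whole span -0.28 (adjusted p = 0.0297), all by limma. The last call was lost without replicate 2 or 3 of Zbtb46- CDPs or replicate 1 or 3 of pre-CD8 DCs (highest adjusted p = 0.123). It was also lost in the fit with a replicate block (adjusted p = 0.0505) and with quantile normalization (adjusted p = 0.0551). The Tal1 signal in pre-CD8 DCs lay only a little above the table median.

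Gata2, the zinc-finger factor of stem cells, mast cells and early erythroid cells, ran from 7.13 to 7.25 on the 9 arrays. All 3 populations overlapped, with means of 7.18 in Zbtb46- CDPs and 7.21 in both Zbtb46+ CDPs and pre-CD8 DCs. The difference between Zbtb46+ and Zbtb46- CDPs was 0.03, with a 95% interval of -0.11 to 0.18 (adjusted p = 0.755, limma). A change larger than that interval was therefore not seen in a signal that lay only a little above the table median.

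Of the 4 homeobox members, Hoxa9 had the largest fall. It is the HOXA gene best known for holding myeloid progenitors in self-renewal. The arrays gave 8.55, 8.05 and 8.23 in Zbtb46- CDPs, 7.57, 7.55 and 7.37 in Zbtb46+ CDPs, and 7.2, 7.18 and 7.01 in pre-CD8 DCs. No array of one population overlapped another population. Hoxa9 was 1.72-fold lower in Zbtb46+ CDPs than in Zbtb46- CDPs (-0.78 ± 0.128 SE, adjusted p = 0.00395, limma). Pre-CD8 DCs differed by -0.37 from Zbtb46+ CDPs, which was not called (adjusted p = 0.143), and by -1.15 from Zbtb46- CDPs, which was (adjusted p = 2.66e-04). Their Hoxa9 signal lay only a little above the table median.

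Meis1, the cofactor of the HOXA proteins, fell at the first step, and its later populations overlapped. Its values were 8.73, 8.05 and 8.17 in Zbtb46- CDPs, 7.72, 7.31 and 7.66 in Zbtb46+ CDPs, and 7.69, 7.66 and 7.65 in pre-CD8 DCs. Both later populations overlapped each other and lay below all Zbtb46- arrays. The first difference was -0.75 ± 0.174 (SE, adjusted p = 0.0201, limma), a 1.69-fold fall. It was not called without replicate 2 of Zbtb46+ CDPs (adjusted p = 0.071) or in a fit of the CDP arrays alone (adjusted p = 0.0724). The second difference was 0.1 (95% interval -0.29 to 0.5, adjusted p = 0.797). The whole-span difference of -0.65 was called (adjusted p = 0.0337), but not when replicate 1 or 3 of Zbtb46- CDPs or any 1 array of pre-CD8 DCs was left out (highest adjusted p = 0.106).

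Hoxa7 had a smaller fall at the first step. Its 3 arrays read 8.2, 7.94 and 7.95 in Zbtb46- CDPs, 7.8, 7.6 and 7.65 in Zbtb46+ CDPs, and 7.65, 7.8 and 7.57 in pre-CD8 DCs. The Zbtb46- arrays lay above all others, and the later populations overlapped. The first difference of -0.35 ± 0.0996 (SE) lay at the threshold (adjusted p = 0.0489, limma) and was lost with any 1 array left out other than replicate 1 of Zbtb46+ CDPs (-0.41 to -0.26, highest adjusted p = 0.152). The second difference was -0.01 (95% interval -0.23 to 0.22), and the whole-span difference was -0.36 (adjusted p = 0.0414), which 7 of the 9 single omissions ended: all but replicate 1 of Zbtb46+ CDPs and replicate 2 of pre-CD8 DCs.

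Hoxa10, the third HOXA member, had 5.51 to 5.7 on all 9 arrays, below the table median throughout. The populations overlapped, and the difference between Zbtb46+ and Zbtb46- CDPs was 0.04 (95% interval -0.13 to 0.2, adjusted p = 0.768, limma). At this brightness a level above background was not shown in any population.

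Myb was the only one of the 10 called lower at both steps, which 0.782% of all genes were. Its signals were 10.88, 10.98 and 10.9 in Zbtb46- CDPs, 9.96, 9.82 and 9.83 in Zbtb46+ CDPs, and 8.82, 8.79 and 8.76 in pre-CD8 DCs. The populations were separated by more than the spread within them, whose SDs were 0.05, 0.08 and 0.03 in the same order. Myb was 2.07-fold lower in Zbtb46+ CDPs than in Zbtb46- CDPs (-1.05 ± 0.0683 SE, adjusted p = 3.28e-05) and lower again by 1.08 in pre-CD8 DCs than in Zbtb46+ CDPs (adjusted p = 3.17e-05), both by limma. Of its whole-span difference, 49.3% fell at the first step. Pre-CD8 DCs held 22.9% of the Zbtb46- CDP level (-2.13, adjusted p = 1.56e-07). These calls held with each array left out in turn.

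Sox4 fell at the first step with a wide spread between replicates. It had 9.62, 8.98 and 8.91 in Zbtb46- CDPs, 8.35, 7.81 and 7.88 in Zbtb46+ CDPs, and 7.49, 7.34 and 7.24 in pre-CD8 DCs. No population overlapped another, and replicate 1 was the highest array in all 3. The first difference was -1.16 ± 0.203 (SE, adjusted p = 0.00558, limma), a 2.23-fold fall. The second, -0.65, was not called in the fit of all arrays (adjusted p = 0.102), but was called when replicate 1 of Zbtb46- CDPs was left out (adjusted p = 0.0374). Over the whole span Sox4 reached 28.5% of its Zbtb46- CDP level (-1.81, adjusted p = 2.83e-04).

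**Figure D2:**
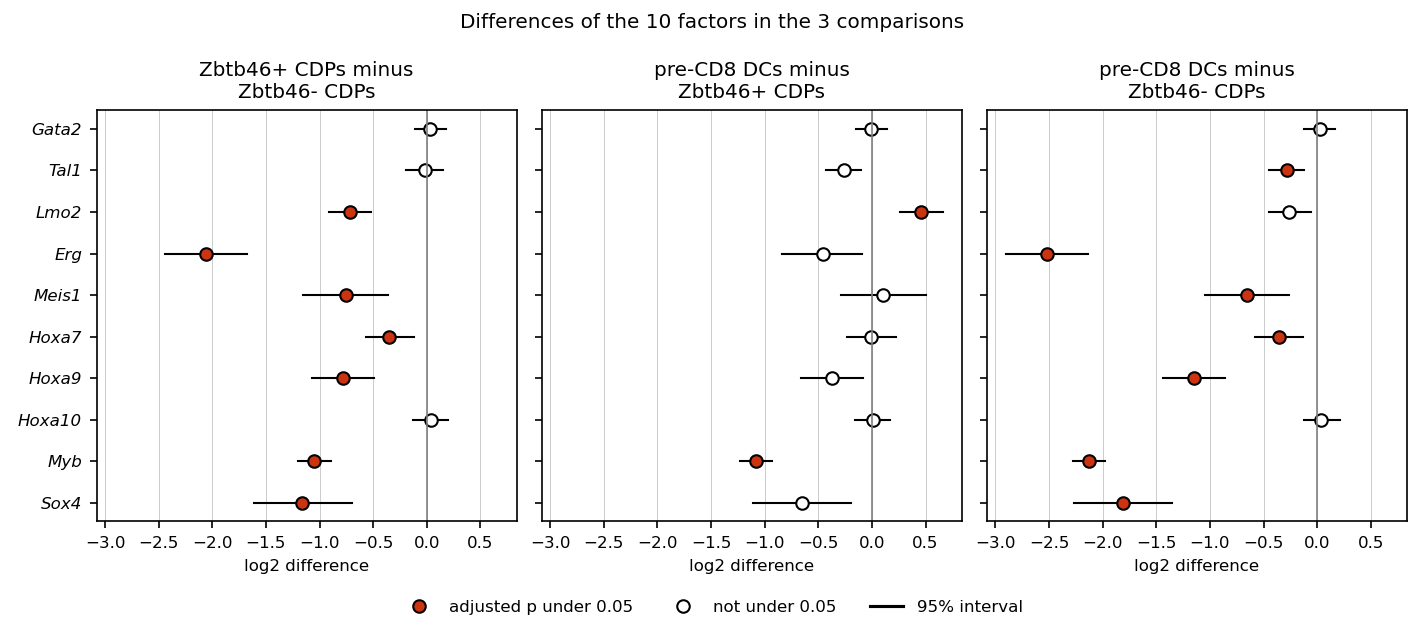
Log2 difference of each factor (point) with its 95% interval (line) for Zbtb46+ CDPs minus Zbtb46- CDPs, pre-CD8 DCs minus Zbtb46+ CDPs, and pre-CD8 DCs minus Zbtb46- CDPs, with filled points for an adjusted p under 0.05. In the first panel 7 points are filled and all lie below 0, and in the second only Lmo2 (0.46) and Myb (-1.08) are filled, on opposite sides.

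The test of the second difference minus the first called Lmo2 (1.18 ± 0.15 SE, adjusted p = 0.00348) and Erg (1.6 ± 0.29 SE, adjusted p = 0.0139), where 7.63% of all genes were called in either direction and 6.26% in this one by limma. Both later populations lay below the table median for Erg, so its first and its second difference may both be understated. Whether the difference of its steps is overstated or understated cannot be told. The Erg call was also lost without replicate 2 of Zbtb46+ CDPs (adjusted p = 0.0584). For Myb the steps differed by -0.03, with a 95% interval of -0.3 to 0.24. Meis1 (0.86, adjusted p = 0.131), Sox4 (0.5, adjusted p = 0.414), Hoxa9 (0.41, adjusted p = 0.293) and Hoxa7 (0.34, adjusted p = 0.276) were not called, so the larger size of their first difference was not shown to exceed the second. Without both replicate 1 arrays of the CDPs, Meis1 (0.81, adjusted p = 0.0291) and Sox4 (0.62, adjusted p = 0.0327) joined Lmo2 and Erg, and 19.9% of all genes were called in either direction. Both steps share the Zbtb46+ arrays.

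Within a population, some arrays ranked highest or lowest for many of the factors. The share of all genes that ranked the same way was not computed, so this ranking cannot be called particular to the factors. Replicate 1 of Zbtb46+ CDPs was the highest of its group for 7 of the 10 factors, and replicate 1 of Zbtb46- CDPs also for 7. Lmo2, Meis1, Hoxa7, Hoxa9 and Sox4 were in both counts, and Erg had no highest array in Zbtb46+ CDPs, since its 3 values were equal. In pre-CD8 DCs replicate 3 was the lowest for all 10. The mean over the 10 factors was 7.69, 7.52 and 7.57 in Zbtb46+ CDPs, against 8.45, 8.15 and 8.22 in Zbtb46- CDPs. It was 7.4, 7.41 and 7.28 in pre-CD8 DCs. The 3 groups did not overlap in this mean, and the 2 arrays with low Xist and high granule genes were the highest in their CDP group.

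Genes whose proteins join the GATA2, TAL1, LMO2 and ERG complex did not move as one group. Of 17 measured, 3 were higher and 1 lower in Zbtb46+ CDPs than in Zbtb46- CDPs, 1 was higher and none lower at the second step (1 was lower at an unadjusted p under 0.05), and 4 were higher and 4 lower over the whole span. The whole-span median was -0.03, against 0.01 for all genes. Cbfa2t3, a corepressor of the ETO family that joins TAL1 complexes, had 8.59 ± 0.15 in Zbtb46- CDPs, 10.08 ± 0.78 in Zbtb46+ CDPs and 10.13 ± 0.13 in pre-CD8 DCs (mean ± SD, n = 3), a rise of 1.49 at the first step (adjusted p = 0.0136, limma). Its Zbtb46+ replicate 1 stood apart at 10.99, and the call was lost without replicate 3 of Zbtb46- CDPs (adjusted p = 0.0538). Spi1, which encodes the Ets factor PU.1 of myeloid and DC fate, was higher by 1.06 over the whole span (adjusted p = 0.0369). Ssbp3, an LDB1-binding protein, rose by 0.8 (adjusted p = 9.06e-04), while its relative Ssbp2 fell by 0.74 (adjusted p = 0.00424). Runx1, the core-binding factor that stem cells require, fell by 1.02 (adjusted p = 0.0132), and Tcf4, the E protein of plasmacytoid DCs, fell by 0.69 (adjusted p = 0.0111). Leaving out replicate 3 of pre-CD8 DCs ended the calls of Runx1 (adjusted p = 0.0567) and Tcf4 (adjusted p = 0.05), and 7 of the 9 single omissions ended that of Spi1, all but the replicate 1 arrays of the CDPs (highest adjusted p = 0.134). Without both of those arrays, 4 partners were called lower and 4 higher at the first step, 4 higher at the second, and 5 lower and 5 higher over the whole span.

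Few of the other homeobox genes were called. Of 21 measured of 24 HOX and TALE genes, 1 was lower and none higher at the first step (1 was higher at an unadjusted p under 0.05, and 1 without both replicate 1 arrays). None was called at the second step, nor at an unadjusted p under 0.05. Hoxa5, a neighbour of Hoxa7 in the cluster, was the one that fell, with 6.64, 6.45 and 6.41 in Zbtb46+ CDPs, against 7.47, 7.09 and 7.09 in Zbtb46- CDPs (-0.72, adjusted p = 0.00401, limma). Pre-CD8 DCs stayed at 6.48, 6.67 and 6.54, overlapping Zbtb46+ CDPs, and all 6 of these arrays lay below the table median. Over the whole span, Pbx2, a TALE partner of HOX proteins, rose by 0.46 (adjusted p = 0.0252) and Pbx4 fell by 0.41 (adjusted p = 0.014). The Pbx2 call was lost without replicate 2 or 3 of Zbtb46- CDPs or replicate 1 or 2 of pre-CD8 DCs (highest adjusted p = 0.0993), and the Pbx4 call without replicate 1 or 3 of pre-CD8 DCs (highest adjusted p = 0.0607). Without both replicate 1 arrays of the CDPs, 2 genes were higher over the whole span instead of 1, where 9.4% of all genes were. At the first step 8.71% of all genes were then higher.

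Among 23 other stem and progenitor regulators, 2 were higher and 2 lower at the first step, 1 higher and 2 lower at the second, and 2 higher and 5 lower over the whole span. Their medians were -0.01, -0.08 and -0.08, close to those of all genes. Mllt3, a chromatin reader that maintains stem cells in human blood, was higher at both steps: its signals were 7.4, 7.49 and 7.48 in Zbtb46- CDPs, 7.93, 7.81 and 7.68 in Zbtb46+ CDPs, and 8.62, 8.89 and 8.7 in pre-CD8 DCs. The populations did not overlap, and the whole-span rise was 1.28 (adjusted p = 1.98e-05, limma). The first-step rise of Mllt3 was only 0.35 (adjusted p = 0.0368, limma). That call ended in 6 of the 9 single omissions (highest adjusted p = 0.115) and without both replicate 1 arrays of the CDPs (adjusted p = 0.106). Mybl1, a relative of Myb, was higher by 0.74 in Zbtb46+ CDPs than in Zbtb46- CDPs (adjusted p = 0.00115) and by 0.61 over the whole span (adjusted p = 0.00211), opposite to Myb. Its Zbtb46- CDP mean of 6.64 lay below the table median. Another relative, Mybl2, was not called at the first step (0.3, adjusted p = 0.09, limma). It fell by 0.79 at the second (adjusted p = 0.00264) and by 0.49 over the whole span (adjusted p = 0.0122). Zfp521, a zinc-finger protein of early progenitors, fell by 1.09 over the whole span (adjusted p = 0.00392). Men1, the menin partner of MLL at HOXA genes, fell by 0.76 (adjusted p = 0.0241), and Mef2c, a MADS-box factor of lymphoid and myeloid progenitors, fell by 0.63 (adjusted p = 0.0119). The Men1 call ended without replicate 1 of Zbtb46- CDPs or replicate 2 or 3 of pre-CD8 DCs (highest adjusted p = 0.0932), and the Mef2c call without replicate 1 or 3 of pre-CD8 DCs (highest adjusted p = 0.0548). Without both replicate 1 arrays of the CDPs, 5 of the 23 were lower and 1 higher at the first step, and 7 were lower over the whole span. The shares of all genes there were 13.8% lower and 8.71% higher at the first step, and 10.8% lower over the whole span.

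**Figure D3:**
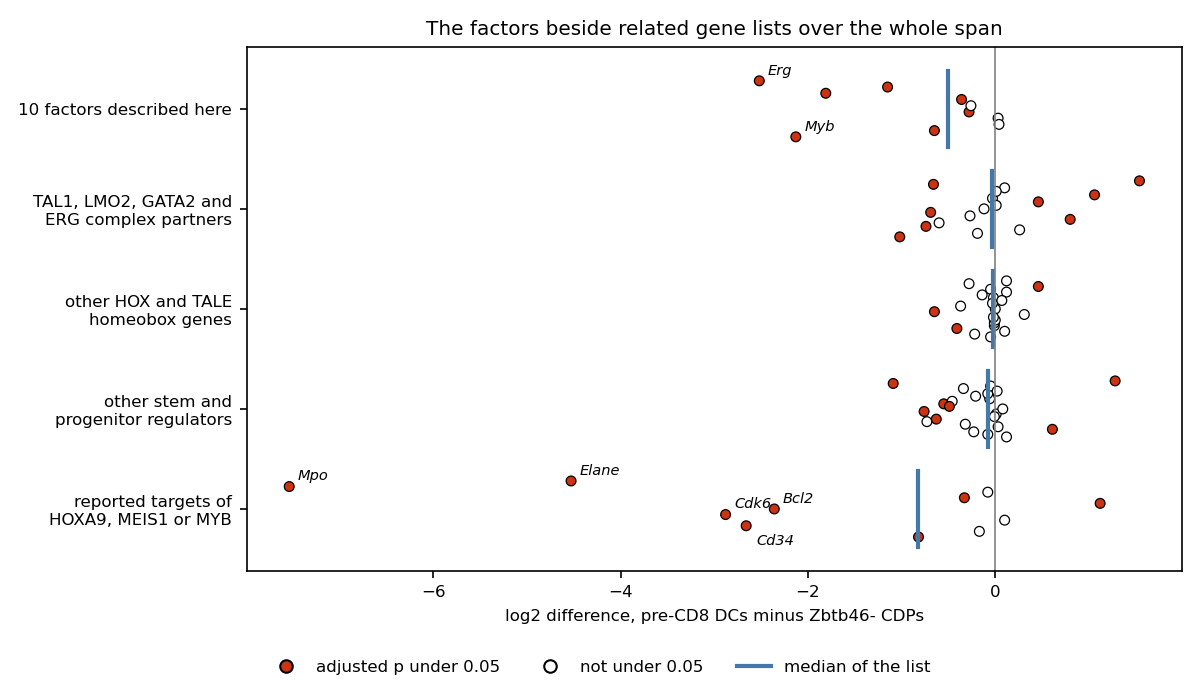
Log2 difference between pre-CD8 DCs and Zbtb46- CDPs of the 10 factors, 17 complex partners, 21 other HOX and TALE genes, 23 other regulators and 11 reported targets (1 point a gene, spread vertically for visibility, filled where the adjusted p is under 0.05, bar at the median of the list). Medians of the factors (-0.5) and of the reported targets (-0.82) lie below 0, and those of the other 3 lists lie between -0.08 and -0.02.

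Genes reported as targets of HOXA9, MEIS1 or MYB in mouse or human blood cells were mostly lower at later stages, with exceptions at the second step. Of 11 measured, 7 were lower and none higher in Zbtb46+ CDPs than in Zbtb46- CDPs, also at an unadjusted p under 0.05, where 9 were lower. At the second step 5 were lower and 3 higher, and over the whole span 7 were lower and 1 higher. Medians were -0.92, -0.09 and -0.82, against 0.04, -0.03 and 0.01 for all genes. Without both replicate 1 arrays of the CDPs, 9 were lower at the first step, 4 higher at the second, and 6 lower over the whole span. The list was drawn up from general knowledge with earlier results of these data known, so it is no independent evidence of direction.

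Cdk6, the kinase that drives progenitors into the cell cycle, had 12.01, 11.81 and 11.74 in Zbtb46- CDPs, 10.32, 10.2 and 10.21 in Zbtb46+ CDPs, and 9.05, 8.93 and 8.93 in pre-CD8 DCs. Like Myb, it fell at both steps with no overlap (-1.61, adjusted p = 1.34e-05, and -1.27, adjusted p = 5.22e-05, limma). Cd34, the sialomucin that marks progenitors, also fell at both (-1.1, adjusted p = 3.85e-04, and -1.56, adjusted p = 7.17e-05). Kit, the stem cell factor receptor, went the other way, with 11.56, 11.61 and 11.59 in pre-CD8 DCs, against 10.99, 10.61 and 10.44 in Zbtb46+ CDPs (0.9, adjusted p = 0.00423). Flt3 and Myc were the other 2 targets that rose at the second step, after falling at the first, and are named only to account for that count, after their values were seen.

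Mpo and Elane, enzymes of neutrophil primary granules, had the largest whole-span falls of the targets. Mpo fell by 7.54 (adjusted p = 2.95e-07, limma) and Elane by 4.53 (adjusted p = 0.00121). Their means in pre-CD8 DCs, 6.08 and 6.82, lay below or near the table median, so these falls may be understated. Elane had 11.65, 8.87 and 8.68 in Zbtb46+ CDPs, against 11.47, 11.21 and 11.37 in Zbtb46- CDPs, so replicate 1 lay with the Zbtb46- arrays, and the first difference was not called (adjusted p = 0.134). Its second difference of -2.92 (adjusted p = 0.029) was lost without replicate 2 or 3 of Zbtb46- CDPs or any 1 array of pre-CD8 DCs (highest adjusted p = 0.102).

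**Figure D4:**
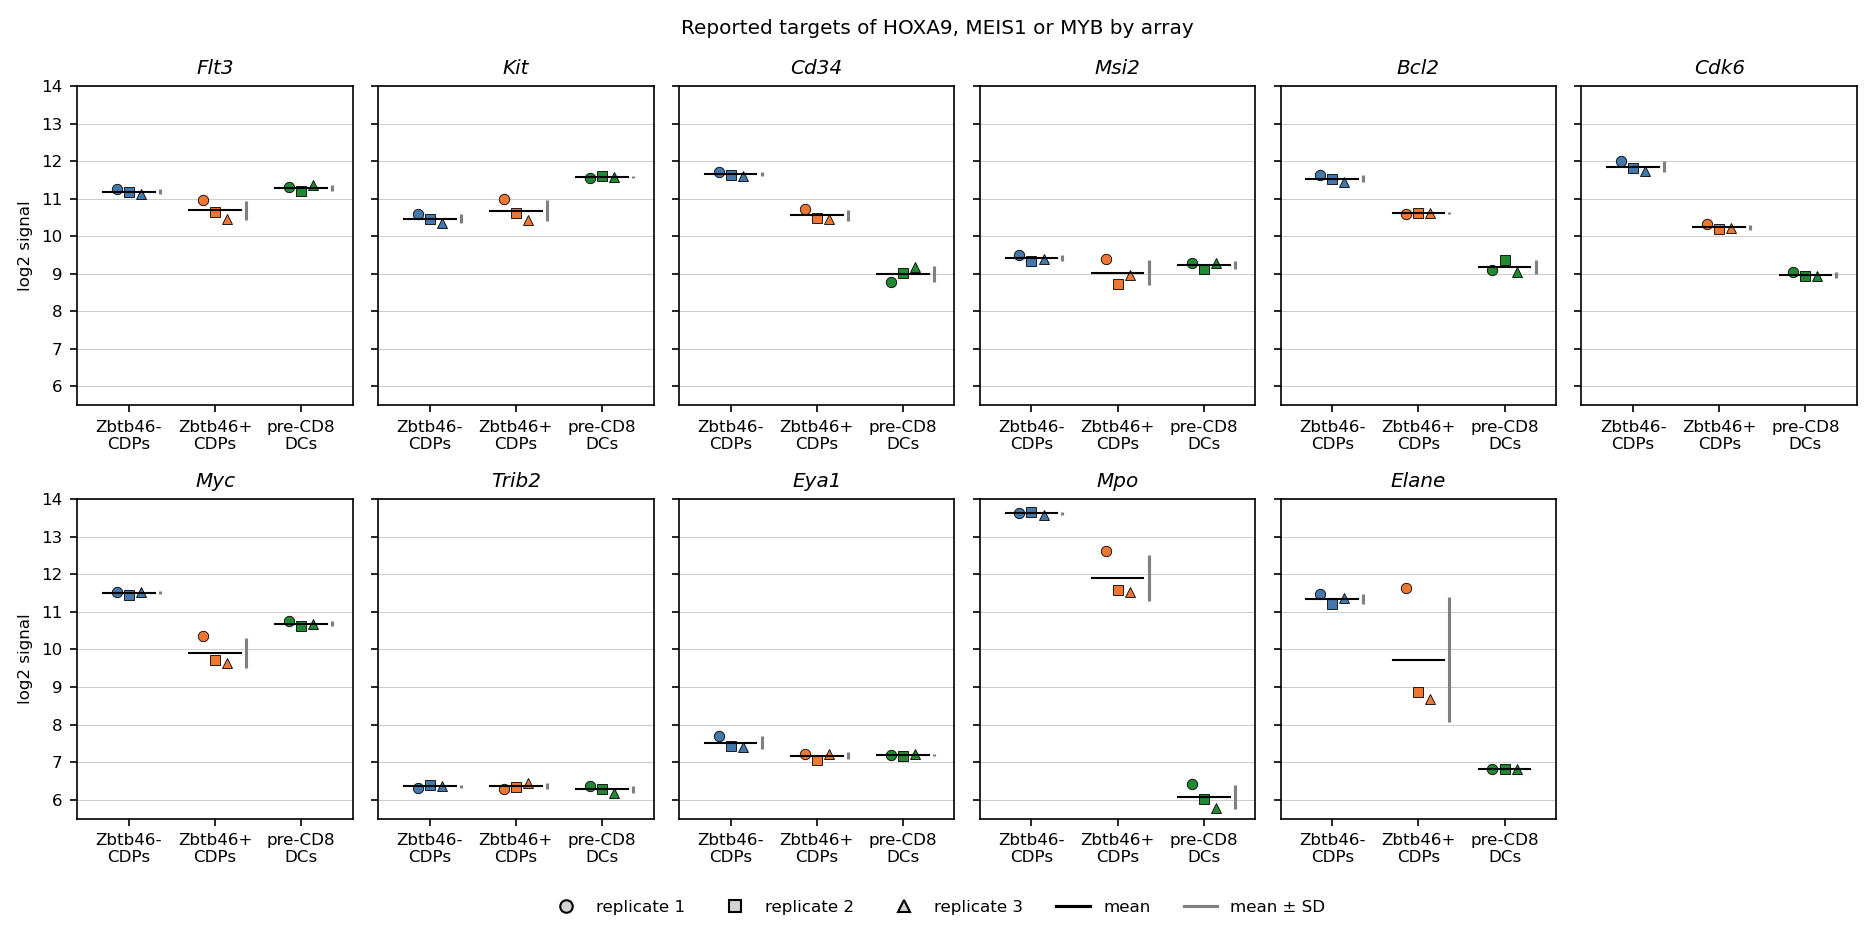
Log2 signal of 11 reported targets of HOXA9, MEIS1 or MYB on each array (points) by population in order of stage, 3 arrays each, with the mean (black line) and mean ± SD (grey bar). Cd34, Bcl2, Cdk6 and Mpo had lower means at each later stage, Kit was highest in pre-CD8 DCs, and replicate 1 of Zbtb46+ CDPs stood above the other replicates for Elane.

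Markers of other cells moved beside the factors in part. Mpo and Elane, described above as targets, are also primary granule markers, so those lists are not separate observations. The 4 primary granule genes summed to 7210 to 14200 linear units in Zbtb46+ CDPs, against 26600 to 26800 in Zbtb46- CDPs, and to 436 to 464 in pre-CD8 DCs, with 3 of 4 lower at the first step and all 4 at the second. The 10 early lymphoid and B cell genes summed to 858 to 930 in Zbtb46+ CDPs, against 1140 to 1800 in Zbtb46- CDPs, and to 801 to 804 in pre-CD8 DCs, with 3 lower at the first step and 8 below the table median. Of 9 stem cell and multipotent progenitor markers, 5 had a mean over all arrays below the table median. At the first step 2 fell and none rose, and at the second 2 fell and 1 rose. The list summed to 3380 to 4270 in Zbtb46+ CDPs, against 5470 to 6170 in Zbtb46- CDPs, and to 3960 to 4150 in pre-CD8 DCs. Its median difference was 0.11 at the first step and 0.01 over the whole span, so the lower sum was not a fall across the list. The 10 erythroid and megakaryocyte genes, cells in which GATA2, TAL1 and LMO2 are also active, overlapped between the CDP groups (1090 to 1330 in Zbtb46+ CDPs and 1200 to 1280 in Zbtb46- CDPs), with 7 below the table median. Of these, Car1 (0.61, adjusted p = 0.024) and Vwf (0.38, adjusted p = 0.0103) were higher at the first step by limma and none was lower, and the list summed to 1080 to 1170 in pre-CD8 DCs. The 8 mast cell and basophil genes summed to 599 to 654 in Zbtb46+ CDPs, against 913 to 1020 in Zbtb46- CDPs, and to 543 to 722 in pre-CD8 DCs. Among them Mcpt8 alone was called at the first step (-2.04, adjusted p = 4.98e-04, limma), the median difference of the list was 0.06, and 5 genes were below the table median. The 7 plasmacytoid DC genes summed to 3490 to 3760 in Zbtb46+ CDPs, against 4310 to 5460 in Zbtb46- CDPs, and to 3690 to 4170 in pre-CD8 DCs, with 1 called lower at the first step. Of 6 monocyte genes, 3 were higher and 2 lower at the first step, and 1 was higher and 3 lower at the second. They summed to 13600 to 16900 in Zbtb46+ CDPs, against 15200 to 16900 in Zbtb46- CDPs, and to 13200 to 13700 in pre-CD8 DCs. The 8 secondary granule genes summed to 543 to 18000 in Zbtb46+ CDPs, against 724 to 5270 in Zbtb46- CDPs, and to 610 to 1640 in pre-CD8 DCs. The part of these cells in the falls of the factors was not tested.

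The 2 genes most like each factor were taken from the 822 genes with a mean log2 signal of at least 7 and a range of group means of at least 1, by Pearson's r over the 9 arrays. These r describe the 3 population means as much as the arrays, since the arrays share populations and replicate numbers. Myb ran closest to Adgrg3 (r = 0.998) and Mefv (0.996), Sox4 to Xpc (0.997) and Pitpnc1 (0.991), Erg to Umps (0.995) and Gstt2 (0.994), and Hoxa9 to Phgdh (0.994) and Gspt2 (0.989). For Hoxa7 they were Rhoh (0.985) and Mmachc (0.976), for Lmo2 Kti12 (0.982) and Wdr74 (0.98), for Meis1 Manea (0.96) and Trim32 (0.957), and for Tal1 Firre (0.952) and Vdr (0.938). The best r of Hoxa10 (Gpr141, 0.609, then Spi1, 0.569) and Gata2 (Trp53i11, 0.508, then Smim5, 0.502) were low, in genes whose own group means spanned only 0.04 and 0.03.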

How the data were processed

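Total RNA of 9 sorted samples was labelled with a WT Pico kit, per the labels' protocols. Per the submitters' processing notes, the authors summarized the arrays with RMA in Affymetrix Expression Console, versions not given in the sources used here. The deposited values are RMA signal intensities on a linear scale, and log2 was taken with no other scaling. The design had assumed log2 values. Probe sets with exactly 1 symbol (21789 of 28853) were used, 999 genes being represented by the brightest of several, which left 19938 genes, dim ones included. The arrays held no identical pair.

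Group means were fitted to all 9 arrays with limma 3.58.1 in R 4.3.3, with Benjamini-Hochberg adjustment over all genes and a threshold of 0.05. The steps were tested on simulated data. Members and lists were chosen with earlier results of these data known. The 10 members are all named, with up to 4 called genes per list by size of the whole-span difference, up to 2 of opposite sign, and the 2 genes most like each member. Xist, Ngp, Mcpt8, Car1, Vwf and Mybl2 were named after their values were seen.

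Deviations of same-numbered arrays correlated by 0.51, 0.42 and 0.36 between the CDP populations, so the replicate numbers in the labels were taken to pair them. This is an assumption. The main tests carried no replicate term and are unpaired, and pairing entered only in the alternatives with a replicate block. Replicate 2 of Zbtb46+ CDPs correlated by 0.38 with replicate 3 of Zbtb46- CDPs, and replicate 3 by 0.15 with replicate 2. The values thus set the replicate 1 arrays apart but do not clearly pair replicates 2 and 3. They correlated by 0.11, 0.07 and 0.17 between pre-CD8 DCs and Zbtb46+ CDPs, and by -0.01, -0.03 and 0.03 between pre-CD8 DCs and Zbtb46- CDPs, which were not taken as paired. Alternatives covered scaling, dim genes, probe sets, moderation, array weights, samples in the fit, replicate blocks, thresholds and arrays left out. Figures were drawn with matplotlib 3.10.9 in Python 3.11.15, and promoter windows came from RefSeq (GRCm38.p6).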

Additional observations from a re-analysis of the deposited data

How the results depend on the processing

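No called difference of the 10 factors changed sign under any of 23 other settings. Of their differences under the 14 settings other than single arrays left out, 479 kept direction and side of the threshold, 24 lost the call, 13 gained it, and 16 uncalled ones changed sign. The cause of each change was not tested, except that the stricter threshold calls fewer genes by construction.

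Counts of factors moved as follows. Lower at the second step: 1, then 2 with quantile normalization, with only the compared groups or with a replicate block over 9 arrays, 3 with array weights, 5 without both CDP replicate 1 arrays. Higher at the second step: 1, then 0 with a block in the compared groups or at a threshold of 0.01. Lower at the first step: 7, then 6 with quantile normalization or with an intensity trend, and 5 with only the compared groups, at 0.01 or without moderation. Lower over the whole span: 7, then 8 with array weights, and 6 with quantile normalization, an intensity trend or a block over 9 arrays. It was 5 with equal array medians, without moderation or with a block in the compared groups, and 4 at 0.01. Difference of the steps: 2, then 1 at 0.01 or without moderation, 3 with array weights, 4 without both replicate 1 arrays. With each array left out, the counts were 5 to 7 lower at the first step (5 without Zbtb46+ replicate 2), 1 to 3 lower (3 without Zbtb46- replicate 1) and 0 to 1 higher at the second, 4 to 8 lower over the span, and 1 to 2 in the step difference.

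For counts of all genes only the larger moves are listed. At the first step they were 2105 lower and 768 higher. They became 3658 and 2772 with array weights, 1388 and 470 in the compared groups, 1035 and 370 at 0.01, and 1239 and 502 without moderation, with 1737 higher without both replicate 1 arrays. At the second step 370 lower and 949 higher became 1041 and 2021 with array weights, 147 and 357 with a block in the compared groups, 169 and 374 at 0.01, 211 and 443 without moderation, 1570 and 2496 without both replicate 1 arrays, with 590 lower under quantile normalization and 601 higher in the compared groups. Over the span 1841 and 1282 became 3730 and 3225 with array weights and 1037 and 840 at 0.01. With single arrays left out, the ranges were 1310 to 3269 lower and 452 to 1999 higher at the first step, 196 to 868 and 458 to 1804 at the second, and 1263 to 2544 and 946 to 1756 over the span, the highest of each without Zbtb46+ replicate 1.

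For every called difference between populations the arrays did not overlap, so array weights or omitted arrays could not turn its sign. Only scaling could turn the sign of such a difference, and signs turned only in uncalled values. With quantile normalization these were Tal1 (0.02) and Hoxa10 (-0.08) at the first step, Gata2 (0.02) at the second, Hoxa10 (-0.0078) over the span, and the step difference of Hoxa10 (0.15). With equal array medians they were Gata2 (-0.0023) at the first step, Gata2 (0.03) and Hoxa7 (0.03) at the second, and the step differences of Gata2 (0.04), Hoxa10 (0.05) and Myb (0.05). Array weights turned Hoxa7 at the second step (0.02) and the step differences of Hoxa10 (0.01) and Myb (0.04). Leaving out both replicate 1 arrays turned Hoxa7 (0.05) and the step difference of Myb (0.08). Single omissions gave -0.07 to 0.02 for Tal1 and -0.0054 to 0.09 for Hoxa10 at the first step. At the second they gave -0.03 to 0.02 for Gata2, -0.03 to 0.18 for Meis1, -0.07 to 0.05 for Hoxa7 and -0.05 to 0.05 for Hoxa10. Over the span Gata2 had -0.0019 to 0.05, and the step differences had -0.14 to 0.05 for Hoxa10 and -0.08 to 0.06 for Myb.

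The replicate block changed no call of a factor between the CDP populations, which were taken as paired (7 lower, and 2451 lower and 1009 higher over all genes). In the unpaired comparisons, the block over 9 arrays added Sox4 at the second step (adjusted p = 0.013) and ended Tal1 over the span (0.0505), with 6 lower. The block in the compared groups ended Lmo2 at the second step (0.0842) and Tal1 (0.0798) and Hoxa7 (0.073) over the span, with 5 lower, all by limma. The step difference needs 3 populations, so it was not fitted in the compared groups. Both filters on dim genes removed Hoxa10, which then has no value. Dim probe sets and 3 arrays a group limit what could be detected.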
